A study of Mus musculus with 10 samples.

Results

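Complement is a set of plasma and cell-surface proteins that marks targets for uptake or lysis, and 9 of its genes were followed here in mouse melanoma tumours: C1qa, C1qb, C1qc, C2, C3, C4b, Cfb, Serping1 and C3ar1. They were found by gene symbol, and all 9 had a row among the 22329 genes of the expression table. The tumours were B16F10, a mouse melanoma cell line, grown under the skin of C57BL6/J mice. Each of the 10 tumours received 1 injection of 80 µg mRNA and was collected 7 days later. In 5 control tumours the mRNA encoded luciferase (libraries 1 to 5). The remaining 5 received 20 µg of each of 4 mRNAs, for murine IL-12 as a single chain, IL-15sushi, GM-CSF and IFNalpha (libraries 6 to 10, called cytokine mRNA tumours). The strain, tumour line and day of collection were common to both groups, and the labels give neither the age of the mice nor a batch.

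In the classical pathway, C1q recognises antibody or altered surfaces, and its partner proteases C1r and C1s then cleave C4 and C2, whose fragments form an enzyme that cleaves C3. The alternative pathway builds a second such enzyme from C3 and factor B, and so amplifies the cleavage. C1 inhibitor, the product of Serping1, blocks C1r and C1s, and C3ar1 encodes the receptor for the released C3a fragment. Hepatocytes make most plasma complement, while C1q is made mainly by macrophages and dendritic cells, so complement transcripts in a tumour can come from infiltrating and stromal cells as well as from tumour cells.

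The promoters of 4 of the 9 genes were matched in RefSeq (build GRCm38.p6), and 3 are shown because C1qb and C1qc are neighbouring genes that rose, and C3 is the component on which the pathways converge. Each is the 250 bases before the annotated start, 5′ to 3′ on the gene's strand, and capitals mark the matches to the motifs described next.
C1qb (chr4:136886201-136886450, minus strand): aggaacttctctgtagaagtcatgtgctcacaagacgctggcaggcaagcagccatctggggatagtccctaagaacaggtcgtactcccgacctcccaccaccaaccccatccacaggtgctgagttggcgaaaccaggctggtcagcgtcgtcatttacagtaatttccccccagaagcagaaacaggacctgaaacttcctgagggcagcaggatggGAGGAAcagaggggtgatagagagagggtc
C1qc (chr4:136892915-136893164, minus strand): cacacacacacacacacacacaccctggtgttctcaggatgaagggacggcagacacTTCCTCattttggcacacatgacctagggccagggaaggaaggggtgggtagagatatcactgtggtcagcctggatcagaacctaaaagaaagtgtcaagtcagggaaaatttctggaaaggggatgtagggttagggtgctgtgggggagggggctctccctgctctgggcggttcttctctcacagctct
C3 (chr17:57228137-57228386, minus strand): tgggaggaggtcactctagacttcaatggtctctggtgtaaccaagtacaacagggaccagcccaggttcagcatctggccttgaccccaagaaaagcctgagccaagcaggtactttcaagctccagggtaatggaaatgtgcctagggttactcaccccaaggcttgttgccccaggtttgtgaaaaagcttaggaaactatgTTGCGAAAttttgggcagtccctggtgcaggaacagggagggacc
The motifs searched on both strands were an ETS core (GAGGAA), a C/EBP site (TTNNGCAA), a STAT-type GAS element (TTCNNNGAA), an interferon-stimulated response element core (GAAA, any 2 bases, GAAA) and an NF-kB site (GGG, any 2 bases, TTTCC); searched this way, no match overlapped another. C1qb and C1qc each held 1 ETS core, starting 30 and 193 bases before the start, and 23.3% of 32851 promoter windows of this length held it. C3 held 1 C/EBP match starting 45 bases before the start (9.56% of windows). C3ar1, whose promoter is not shown, held 1 NF-kB match starting 14 bases before the start (1.41% of windows). The GAS element and the response element core, found in 7.02% and 2.98% of windows, had no match in these 4.

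Values are TPM, a transcript's share of the library corrected for its length, so levels can be compared between genes; the sequencing depth is unknown. The libraries differed beyond their groups. Melanocyte markers (8 genes) summed to 2604 to 16413 TPM in control and 41.9 to 16830 TPM in cytokine mRNA tumours. Library 7 was at the low end and library 10 at the high end of the cytokine mRNA group. Control library 1 was at 2604 TPM and the other controls at 13823 to 16413 TPM. Mitochondrial genes took 16.2% to 27.9% of the TPM in control and 4.44% to 19.2% in cytokine mRNA tumours. Cytokine library 10 lay within the control range for 3 of the 9 complement genes, cytokine library 7 was the highest of all libraries for 7 of them, and control library 5 was the lowest of all for 8.

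Of the 9 genes, 5 rose in the cytokine mRNA tumours and none fell: C1qb, C1qc, Cfb, Serping1 and C3ar1 (limma on log2(TPM + 1), Benjamini-Hochberg adjusted p under 0.05 over 12497 genes). Over all genes tested, 7.41% rose and 3.02% fell by this rule, 10.4% in all. The 9 genes were chosen with earlier results of these data known, so comparisons of them with all genes tested are descriptive. The estimated change was positive in all 9, from 0.89 in C2 to 3.50 in C3 on the log2 scale, with a median of 2.72, against a median of -0.18 over all genes tested. The groups did not overlap in 5 of the 9, namely C1qb, C2, Cfb, Serping1 and C3ar1, and all 5 cytokine mRNA values lay above all control values in 5.45% of genes tested (9.23% without overlap in either direction). The count of rises was 0 without cytokine library 6, 1 without cytokine library 8, 2 without control library 4 and 3 without any 1 of libraries 2, 3, 5, 7 and 9. It was 6 without control library 1 and 8 without cytokine library 10, the tumour whose values lay nearest to the controls. Median-ratio scaling moved the median change of all genes to -0.03 and the count of rises to 8.

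**Figure D1:**
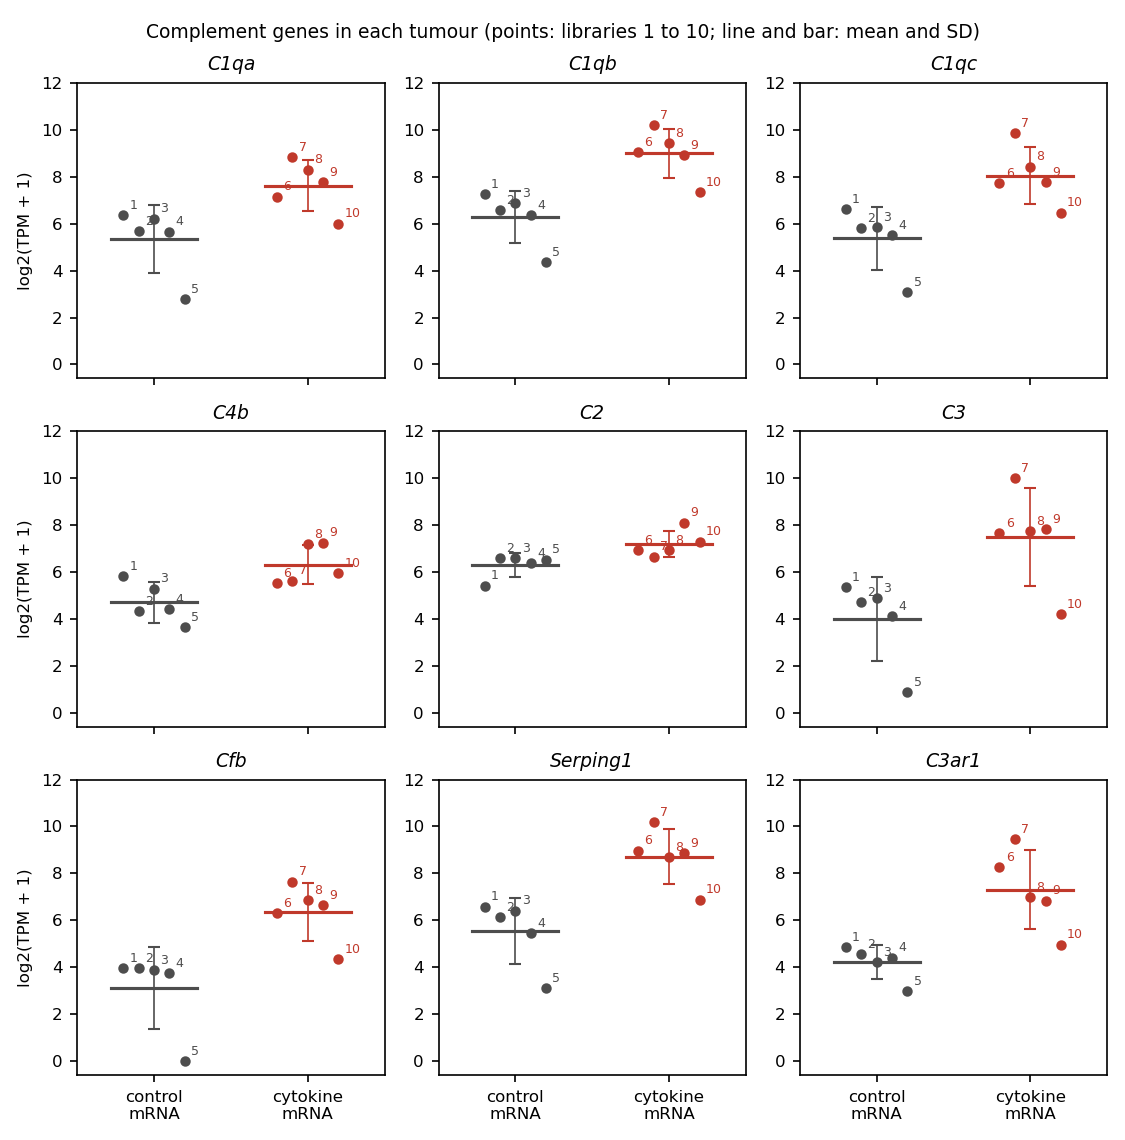
Each panel plots log2(TPM + 1) of a complement gene in the 5 control and 5 cytokine mRNA tumours, with points numbered by library and a line and bar for the mean and SD. Control library 5 is the lowest point in every panel but C2, and cytokine library 10 lies nearest to the controls in 7 of the 9 panels.

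The C1q subunit genes encode the chains of the recognition molecule, which assemble together. C1qa was at 80.8, 50.5, 73.2, 49.7 and 5.93 TPM in control libraries 1 to 5 and at 142, 461, 316, 219.9 and 63.2 TPM in cytokine libraries 6 to 10. Library 10 lay inside the control range and the other 4 cytokine mRNA tumours lay above it. The control mean was 52.0 ± 29.2 TPM (SD, n = 5 here and below) and the cytokine mRNA mean 240.4 ± 155 TPM, a log2 change of 2.28 ± 0.70 (SE) that missed the threshold (limma adjusted p = 0.0592). It passed without library 10, at 2.68 (adjusted p = 0.0160), and was 1.64 without control library 5 (adjusted p = 0.0839).

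C1qb had the highest mean TPM of the 9 genes in both groups, although C2 was higher in 3 of 5 control tumours. It was at 152, 93.9, 116, 80.9 and 19.7 TPM in control and 531, 1188, 699, 487 and 162 TPM in cytokine mRNA tumours. The groups did not overlap, although library 10 lay just above control library 1. C1qb rose 6.64-fold in the means, and by 2.72 ± 0.59 (SE) on the log2 scale (limma adjusted p = 0.0196). The call did not hold without library 6 (adjusted p = 0.0559) or library 8 (0.0518).

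C1qc stood at 97.9, 54.8, 57.2, 44.6 and 7.38 TPM in control and at 213, 926, 344, 218 and 87.7 TPM in cytokine mRNA tumours, where library 10 again fell within the control range. It rose by 2.68 ± 0.70 (SE) on the log2 scale (limma adjusted p = 0.0354). The mean in cytokine mRNA tumours was 358 ± 330.2 TPM and 215 TPM without library 7. With 1 library left out, the call held in the fits without library 1 or library 10, and the adjusted p was 0.0603 to 0.0769 without any 1 of libraries 2 to 9.

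The proportions of the chains also varied. C1qb was 1.58 to 1.88 times C1qa in control libraries 1 to 4 and 3.32 times in control library 5, where both were low. In the cytokine mRNA tumours it was 2.21 to 3.75 times C1qa. C1qc was 0.781 to 1.24 times C1qa in control and 0.989 to 2.01 times in cytokine mRNA tumours, so for either pair the ranges overlapped between the groups.

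C4b and C2 supply the pieces of the classical enzyme that cleaves C3. C4b was at 55.4, 19.2, 38.1, 20.1 and 11.5 TPM in control and 45.2, 48.7, 146, 151 and 61.1 TPM in cytokine mRNA tumours. Its high values were in libraries 8 and 9, while libraries 6 and 7 lay below control library 1. The log2 change was 1.61 ± 0.47 (SE; limma adjusted p = 0.0519). It passed without control library 1 (1.89, adjusted p = 0.0369) or without library 10 (1.70, adjusted p = 0.0347). C4b has a near-identical paralog, C4a, which was looked for and had no row in the expression table. Reads of the pair could therefore have been counted in the C4b row.

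C2, the protease that joins C4b in that enzyme, was at 41.6, 95.7, 94.7, 82.8 and 91.0 TPM in control and 122, 99.4, 122, 274 and 155 TPM in cytokine mRNA tumours. The groups did not overlap, but library 7, the highest tumour for most of these genes, was the lowest of its group here. The means were 81.2 ± 22.7 and 155 ± 69.8 TPM, and the log2 change of 0.89 ± 0.32 (SE) did not pass (limma adjusted p = 0.0893).

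C3 is cleaved in all complement pathways, and its fragments label surfaces for uptake. It was at 39.8, 25.2, 28.4, 16.3 and 0.831 TPM in control and at 202, 1031, 211, 225 and 17.3 TPM in cytokine mRNA tumours. Libraries 6 to 9 were all above every control, and library 10 was below 3 of the 5 controls. The means were 22.1 ± 14.6 and 337 ± 397 TPM, and the cytokine mRNA mean was 164 TPM without library 7. The log2 change of 3.50 ± 1.04 (SE) missed the threshold (limma adjusted p = 0.0538), and without library 10 it was 4.32 and passed (adjusted p = 0.00549). Without control library 5 it was 2.72, and without library 7 it was 2.87, and neither passed.

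Cfb encodes factor B, the protease of the alternative pathway. Its level was 14.5, 14.6, 13.5, 12.3 and 0.00133 TPM in control and 77.2, 199, 116, 98.9 and 19.3 TPM in cytokine mRNA tumours. Control libraries 1 to 4 lay close together, and the groups did not overlap. Cfb rose by 3.25 ± 0.81 (SE) on the log2 scale (limma adjusted p = 0.0300), from a mean of 11.0 ± 6.21 to 102 ± 65.2 TPM. Without control library 5 the log2 change was 2.48 (adjusted p = 0.0355). The call was lost without any 1 of libraries 2, 3, 4, 6, 7, 8 and 9 (adjusted p = 0.0506 to 0.0734) with a pseudocount of 0.1 (0.0803) and with no filter on low values (0.0534). In the GENCODE M21 annotation another gene, Gm20547, spans Cfb and the neighbouring C2, and it was at 1.11 TPM in control library 5 and at 8.10e-07 TPM or less in the other libraries. With its TPM added to Cfb, control library 5 stood at 1.12 TPM and the log2 change was 3.04 ± 0.68 (SE; limma adjusted p = 0.0207).

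Serping1, the gene of C1 inhibitor, was at 95.0, 68.9, 84.2, 42.9 and 7.63 TPM in control and at 499, 1159, 409, 461 and 117 TPM in cytokine mRNA tumours, with no overlap. It rose 8.86-fold in the means and by 3.17 ± 0.71 (SE) on the log2 scale (limma adjusted p = 0.0208). Without library 4, 6 or 8 the adjusted p was 0.0510, 0.0591 and 0.0504, and without control library 5 the log2 change was 2.57 (adjusted p = 0.0341). In the cytokine mRNA tumours Serping1 was second to C1qb in mean level, and C1qb was higher in 5 of 5 of them.

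C3ar1, the C3a receptor of myeloid cells, was at 28.1, 22.3, 17.6, 20.2 and 6.88 TPM in control and at 308, 695, 125, 113 and 30.2 TPM in cytokine mRNA tumours. The groups did not overlap, and library 10 was just above control library 1. C3ar1 rose by 3.10 ± 0.70 (SE) on the log2 scale (limma adjusted p = 0.0219), and its cytokine mRNA mean of 254 ± 266 TPM was 144 TPM without library 7. The adjusted p was 0.0555 without control library 5 and 0.0640 without library 6.

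The order of levels differed between the groups. In control tumours the order of mean TPM was C1qb, C2, Serping1, C1qc, C1qa, C4b, C3, C3ar1 and Cfb. In cytokine mRNA tumours it was C1qb, Serping1, C1qc, C3, C3ar1, C1qa, C2, Cfb and C4b. For every pair of neighbours in either order the ranges of the 5 values overlapped. C2 moved from the 2nd to the 7th place and C3 from the 7th to the 4th. These places depended on library 7. Without it the cytokine mRNA mean of C3 was 164 TPM, below C1qa at 185 TPM and C2 at 168 TPM.

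C1q was then set against C3, factor B and C1 inhibitor within each tumour, as the log2 of the ratio of (TPM + 1) to C1qa, which does not move with library scaling beyond the pseudocount. Cfb gained on C1qa: the ratio averaged -2.24 ± 0.42 in the 5 controls and -1.26 ± 0.30 (SD) in the 5 cytokine mRNA tumours, without overlap and with a difference of 0.98 (exact 2-sided permutation p = 0.00794, the smallest that 5 against 5 can give; adjusted over 3 ratios, 0.0238). Serping1 gained too, from 0.20 ± 0.24 to 1.09 ± 0.53, a difference of 0.89 (exact permutation p = 0.0159, adjusted 0.0238), with library 8 inside the control range. For C3 the ratio averaged -1.36 ± 0.40 in controls and -0.14 ± 1.13 in the cytokine mRNA group, and its difference of 1.22 did not pass (exact permutation p = 0.0635, adjusted 0.0635). It did without library 10, at 1.64 (adjusted p = 0.0159, exact permutation).

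These calls depended on the C1q chain chosen. With C1qb in place of C1qa the difference was 0.54 for Cfb and 0.46 for Serping1, and neither passed (exact permutation, adjusted p = 0.190 for each). With C1qc it was 0.58 and 0.50 (adjusted p = 0.127 for each). For C3 the difference was 0.78 with C1qb and 0.82 with C1qc (adjusted p = 0.222 and 0.127). Without libraries 6 and 7 it was 0.57 (exact permutation, adjusted p = 0.250). The Cfb ratio also missed with a pseudocount of 5 (0.49, adjusted p = 0.0833), and with Gm20547 added to Cfb its difference was 0.76 (adjusted p = 0.0238).

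**Figure D2:**
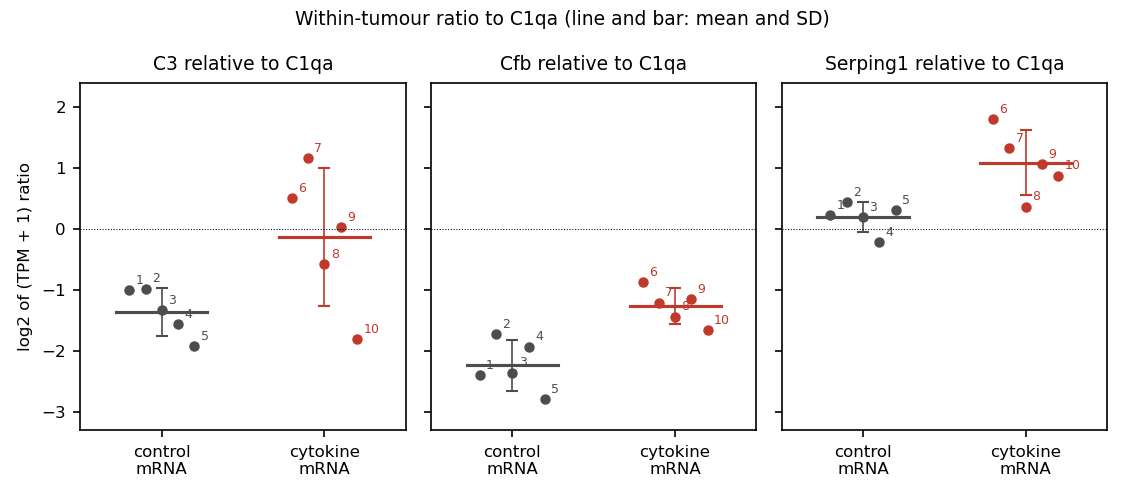
Log2 of the (TPM + 1) ratio of C3, Cfb and Serping1 to C1qa in each tumour, by group, with points numbered by library and a line and bar for the mean and SD. The Cfb ratios do not overlap between groups, while in the C3 panel library 10, at -1.81, lies among the controls and library 7, at 1.16, is the highest.

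The other complement genes came from a list of 49, of which 48 had a row and 23 passed the filter on low values. Of these 23, 7 rose and none fell, against 7.41% that rose and 3.02% that fell over all genes tested. The median log2 change of the 23 was 0.70, and 9 of the 48 were listed at 0 in all libraries. Among the proteases that act with C1q, C1s1 was at 46.9, 20.5, 69.7, 8.76 and 2.19 TPM in control and 157, 420.2, 158, 244 and 57.2 TPM in cytokine mRNA tumours. C1s1 rose by 3.20 ± 0.79 (SE) and C1ra, its activator, by 1.79 ± 0.48 on the log2 scale (limma adjusted p = 0.0290 and 0.0389), each with library 10 inside the control range. Both have close paralogs, C1s2 and C1rb, and C1rb was listed at 0 in every library. The call of C1s1 was lost without any 1 of libraries 2, 4, 5, 6, 7, 8 and 9 (adjusted p up to 0.0723; log2 change 2.57 without control library 5), and that of C1ra without any 1 of libraries 2 to 9 (up to 0.0906).

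Within the alternative pathway, Cfp encodes properdin, which stabilises the enzyme made from C3 and factor B. Cfp was at 14.9, 24.6, 35.6, 18.6 and 3.73 TPM in control and 309, 343, 193, 165 and 21.6 TPM in cytokine mRNA tumours, where library 10 stood apart from the other 4. It rose by 3.16 ± 0.74 (SE) on the log2 scale (limma adjusted p = 0.0251; up to 0.0709 without any 1 of libraries 4 to 9; log2 change 3.84 without library 10). Of the terminal components that build the membrane pore, 2 of 7 listed could be tested, and neither passed (10.4% of all genes tested did).

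Of 17 regulators listed other than Serping1, 8 were tested, and none rose and none fell. Over all genes tested 10.4% were called, so no call among 8 genes is near the general share. The estimates of these regulators were positive in 6 of 8, with a median log2 change of 0.27. Cr1l, the rodent membrane regulator also called Crry, was at 51.9 ± 22.3 and 60.4 ± 22.1 TPM, which differed by 0.24 ± 0.31 (SE) on the log2 scale (limma adjusted p = 0.609). Clu, the gene of the fluid-phase inhibitor clusterin, was at 22.7 ± 20.9 and 19.9 ± 9.09 TPM. Cd55, which encodes a membrane inhibitor of the C3-cleaving enzymes and was named after its values were seen, was at a log2 change of 1.90 (limma adjusted p = 0.126) and passed without library 10 (2.64, adjusted p = 0.00494). Whether Serping1 changed more than these regulators was not tested.

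Of the other receptors, 4 of 6 tested rose and none fell, against 7.41% and 3.02% of all genes tested. C5ar1, the C5a receptor of phagocytes, rose from 18.9 ± 10.2 to 123 ± 64.1 TPM without overlap (log2 change 2.74 ± 0.63 SE, limma adjusted p = 0.0232; 0.0526 to 0.0594 without library 6, 8 or 9). Itgam, Itgax and Itgb2 encode the integrin chains of the receptors for cleaved C3. Itgb2 rose by 2.98 ± 0.51 (SE) on the log2 scale (limma adjusted p = 0.0120) and was called in all 10 fits with 1 library left out. Itgam rose by 3.21 ± 0.66 (adjusted p = 0.0172; 0.0535 without library 6), from 36.5 ± 22.9 to 436 ± 421 TPM, or 257 TPM without library 7. Library 10, at 67.3 TPM, lay just below control library 1 at 67.6 TPM. Itgax rose by 1.98 ± 0.56 (adjusted p = 0.0458), a call lost without any 1 library but 3 and 10 (up to 0.110). Cd93, a surface protein of endothelial and myeloid cells, was at 21.7 ± 3.34 and 69.0 ± 52.5 TPM (limma adjusted p = 0.0640) and passed without library 10 (0.00990). C1qbp, a mitochondrial protein that can bind C1q, was at 75.9 ± 4.91 and 81.0 ± 21.5 TPM (limma adjusted p = 0.882).

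**Figure D3:**
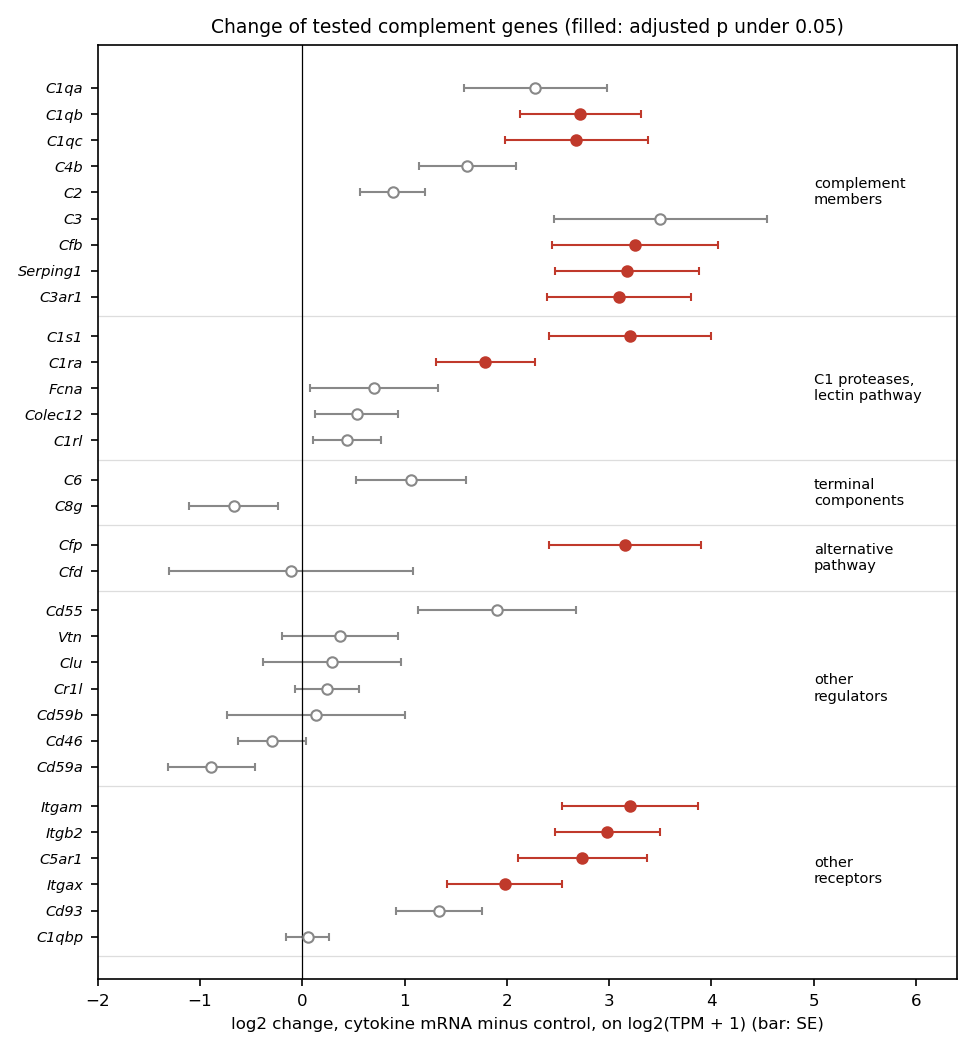
Log2 change on the log2(TPM + 1) scale, cytokine mRNA minus control, of the 9 complement genes and of the other tested complement genes but 1, with bars for the SE and filled points for an adjusted p under 0.05. The 12 filled points all lie right of 0, and none of the other regulators shown is filled. Over all genes tested, 10.4% passed this threshold.

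Summed markers of macrophages, monocytes and neutrophils were higher in every cytokine mRNA tumour than in every control. C2 and C4b differed from them across libraries. Library 7 had the highest macrophage sum and, at 99.4 TPM, the lowest C2 of its group. C4b was at 45.2 and 48.7 TPM in libraries 6 and 7, below control library 1 at 55.4 TPM. In bulk tissue, more cells of a type and more RNA per cell cannot be told apart. Of 12 macrophage markers, 11 rose and none fell, against 7.41% and 3.02% of all genes tested. Their median log2 change was 2.70, and all 12 were above 0. Their summed level was 127 to 434 TPM in control and 622 to 6883 TPM in cytokine mRNA tumours. The C1q genes summed to 25.9 to 80.4 TPM per 100 TPM of these markers in control and to 23.5 to 53.5 in cytokine mRNA tumours. The ranges overlapped, but 25.9 was control library 5, and the other controls were at 47.6 to 80.4. Cytokine libraries 6, 7 and 9 lay below control libraries 1 to 4, at 23.5, 37.4 and 38.4. Libraries 8 and 10 lay within the range of those controls, at 53.5 and 50.4. For C3 the same ratio was 0.653 to 9.70 and 2.78 to 15.0, and for Serping1 5.99 to 23.1 and 13.2 to 19.1. The C3ar1 ratio was 4.07 to 6.85 and 4.70 to 10.1. That of Cfb was 3.11 to 3.79 in control libraries 1 to 4, 0.00105 in control library 5 and 2.05 to 4.57 in cytokine mRNA tumours. The part of macrophage number in the complement values was not tested.

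The markers of monocytes (6 genes) summed to 7.10 to 109 TPM in control and 128 to 8578 TPM in cytokine mRNA tumours. Of the 6 tested, 2 were higher, against 7.41% of all genes tested. Neutrophil markers (8 genes) summed to 1.84 to 9.24 and 10.5 to 191 TPM, with 2 of 3 tested higher. T cell markers (8 genes) summed to 0.610 to 33.6 and 58.5 to 3613 TPM, with 6 of 6 tested higher. The part of these cells in the complement values was not tested.

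The 10 fibroblast markers summed to 169 to 1246 TPM in control and 320.1 to 2705 TPM in cytokine mRNA tumours, and none of them passed the test. With 10.4% of all genes tested called, no call in a list of 8 or 10 genes is near the general share. Control library 5, the lowest for 8 complement genes, was also lowest in the fibroblast sum and in the macrophage sum. The 8 endothelial markers summed to 83.4 to 156 and 94.1 to 134 TPM, with a median log2 change of -0.04, and none of them passed. The 8 melanocyte markers had estimates below 0 in 8 of 8, with a median of -1.86 (-2.14 to -1.38), and none passed. The part of tumour cell content in the complement values was not tested. The 10 hepatocyte markers summed to 2.64 to 9.89 TPM in control and 0.947 to 9.34 TPM in cytokine mRNA tumours, and Ttr and Fgb among them were listed at 0 in all 10 libraries. The part of fibroblasts in the complement values was not tested.

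**Figure D4:**
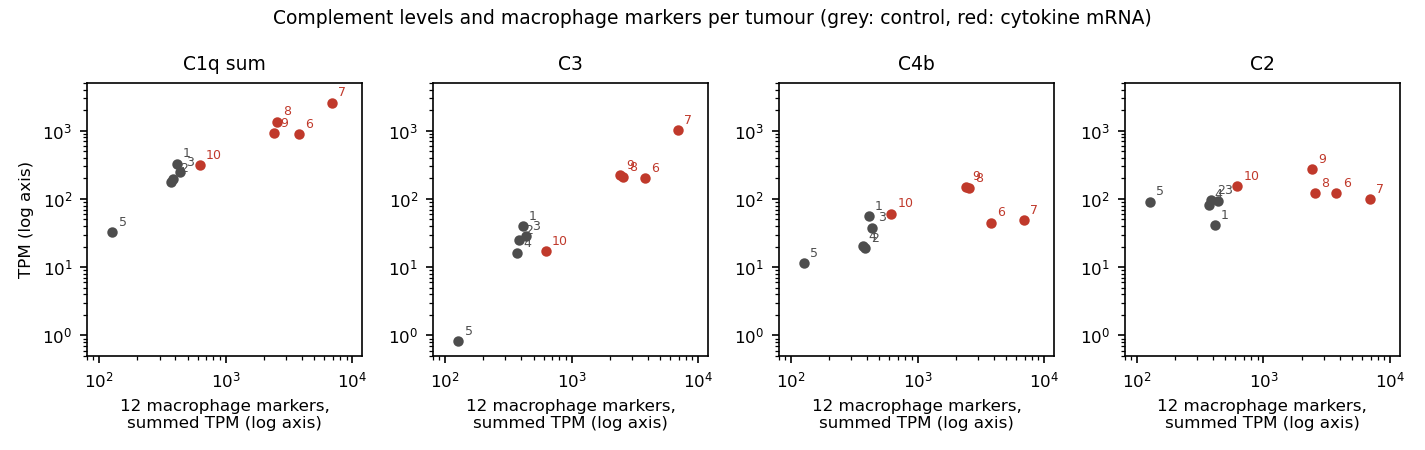
Summed TPM of the C1q genes and TPM of C3, C4b and C2 against the summed TPM of 12 macrophage markers in each tumour, on log axes, with points numbered by library. C1q and C3 are highest in library 7, which has the highest marker sum (6883 TPM), whereas C4b and C2 are highest in library 9.

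The genes most like C1qa, C3 and Cfb over the 10 libraries were ranked by the root mean square difference of their centred log2(TPM + 1) values. Centring was over all 10 libraries, so the difference between the groups is part of this likeness. Among the genes named below, Lyz2 and Plac8 also belong to the macrophage and monocyte marker lists. For C1qa the closest were Naaa at 0.24, Ly6e at 0.28, Lrrc25 and Siglec1 at 0.37 and Pak1 at 0.38; C1qc and C1qb, at 0.37 and 0.38, were about as close. Siglec1 encodes a macrophage sialic acid receptor and Naaa a lysosomal amidase. The other members were farther from C1qa: Serping1 at 0.58, Cfb at 0.59, C3ar1 at 0.96, C3 at 0.97, C4b at 1.01 and C2 at 1.55. Nearest to C3 were Lair1 at 0.40, Ly6c1 at 0.49, Lyz2, the macrophage lysozyme gene, at 0.51, Plbd1 at 0.53 and Clec4a1 at 0.55, all nearer than Cfb at 0.63. The closest to Cfb were Aoah at 0.35, Plac8 at 0.37, Rac2 at 0.39, Pld4 at 0.40 and Tyrobp, a signalling adaptor of myeloid receptors, at 0.41, and Serping1 was at 0.40.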

How the data were processed

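Gene expression was measured by sequencing polyA RNA of 10 subcutaneous tumours, with stranded NuGEN libraries per the labels' protocols. The authors deposited 1 table of TPM, scaled to 1000000 in each library. STAR and GRCh38 are named in processing notes of the submitters; GRCh38 is a human build although the symbols are mouse, so the authors' build is taken as unknown. What counted the reads, and on which annotation, is not given in the sources used here. Depth is lost in TPM, so there is no counting interval.

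Libraries were assigned by title, with 5 per group and no shared numbers. The 12497 genes at 1 TPM or more in 5 or more libraries were compared on log2(TPM + 1) with limma 3.58.1 in R 4.3.3 (trend, 2-sided), adjusted by Benjamini-Hochberg over all of them; the step was tested on simulated data. Ratios within a tumour used an exact 2-sided permutation test, adjusted over 3 ratios. Alternatives were other pseudocounts, filters, scalings, variance settings and tests, and libraries left out. The tested genes were kept except under the filters and where the 50 most abundant or the mitochondrial genes were removed before rescaling. Those removals left 12454 and 12490 genes tested. Summed C1q levels, chain proportions and levels per marker TPM are descriptions.

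The members and lists were chosen with earlier results of these data known. Named were all 9 members, every other complement gene called and the 4 most abundant of the rest, and the 5 genes most like C1qa, C3 and Cfb (predicted genes left out). Marker lists covered macrophages, monocytes, neutrophils, hepatocytes, fibroblasts, endothelium, T cells and melanocytes. Promoters came from the RefSeq table of build GRCm38.p6. A gene of the list of other complement genes is not reported here by name.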

Additional observations from a re-analysis of the deposited data

Results flagged for a closer look

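In 46 groups of 5 values (the named complement genes and the 3 ratios, in each group), 6 held a library far from the other 4 on the log2 scale, by a criterion that chance meets in about 5% of groups. Control library 5 was far below the other controls for C1qa (5.93 TPM), C3 (0.831 TPM), Cfb (0.00133 TPM) and C5ar1 (2.31 TPM). Control library 1 was far below them for C2, at 41.6 TPM. Cytokine library 10 was far below its group for Cfp, at 21.6 TPM.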

How the results depend on the processing

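The sign of the change was positive for all 9 members under every alternative run, in 208 values; 37 of these lost a call and 17 gained one. The count of members that rose, 5 of 9, was 8 with a pseudocount of 5, 3 with no filter on low values, 8 after median-ratio scaling, 9 with library quality weights and 0 to 8 with 1 library left out. It was 0 without libraries 6 and 7 together, 8 without libraries 1 and 10 together and, an alternative chosen after seeing the data, 3 without libraries 5 and 7 together. An exact rank sum test called 0 of the 9 and 0 genes in all, where its smallest adjusted p was 0.0860. With 5 against 5 tumours its unadjusted p cannot fall below 0.00794. The 1153 genes without overlap had that p, among them C1qb, C2, Cfb, Serping1 and C3ar1, so no gene could pass here. By this test 8 of the 9 members and 2914 genes had an unadjusted p under 0.05. Over all genes, 1304 were called, 846 with no filter, 2769 with quality weights, 367 to 3238 with 1 library left out, 20 without libraries 6 and 7, 2832 without 1 and 10 and 383 without 5 and 7. Rises made up 71.0% of all calls. They made up 60.0% when the top 50 genes by level were left out of the scaling and the test, and 47.8% when mitochondrial genes were. These settings moved the median change of all genes to -0.28 and -0.37.

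The C3 to C1qa difference was 0.90 to 1.64 with 1 library left out and 1.73, past the threshold, without libraries 1 and 10, and it was 0.57 without libraries 6 and 7, 0.76 without 5 and 7, 0.78 with C1qb and 0.82 with C1qc, none past the threshold. The Cfb difference missed the threshold with a pseudocount of 5 (0.49) and with C1qb (0.54) or C1qc (0.58) in place of C1qa. It also missed the threshold without libraries 6 and 7 (0.82) or 5 and 7 (0.82). The Serping1 difference missed the threshold with C1qb (0.46) or C1qc (0.50), without libraries 6 and 7 (0.58), 1 and 10 (0.96), or 5 and 7 (0.86). Without libraries 6 and 7 or 5 and 7, the Cfb ratios still did not overlap between the groups. The smallest possible exact p grows as tumours are left out. Misses without a pair of libraries can therefore not be told apart from the loss of tumours. The causes were not tested; these pairs left out leave 3 to 5 tumours in a group. No paired analysis was possible because the groups share no replicate number. How far depth limits the low values is unknown.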

Other observations

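C2 and Cfb are neighbouring genes in RefSeq, and their proportions varied widely. C2 was 2.87 to 7.01 times Cfb in control libraries 1 to 4, and no ratio is given for control library 5, where Cfb was at 0.00133 TPM and C2 at 91.0 TPM. It was 1.58, 0.500, 1.05 and 2.77 times Cfb in cytokine libraries 6 to 9 and 8.07 times in library 10. These ratios were picked with their values in view, and no test was made.

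Cfd, the gene of factor D or adipsin, a protease made largely by fat cells, was at 0, 0.998, 24.4, 30.4 and 0 TPM in control and 2.11, 13.3, 16.7, 0.359 and 0 TPM in cytokine mRNA tumours, with no order by group. Among the lectin pathway genes, Mbl1, Mbl2 and Fcnb were listed at 0 in all 10 libraries, and so were the pore components C8a, C8b and C9. These genes were named after their values were seen.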
